A study of Mus musculus with 32 samples.

Results

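The genes described here are 10 members of the BMP and Nodal signalling pathways, measured by RNA sequencing of polyadenylated RNA in the mouse embryonic stem (ES) cell line E14. They are the ligands Bmp4 and Nodal, the coreceptor Tdgf1, the secreted inhibitors Lefty1 and Lefty2, the inhibitory SMADs Smad6 and Smad7, and the BMP targets Id1, Id2 and Id3. They were chosen by name and role out of 17424 gene names in the deposited tables, at a time when earlier results of these data were known. The fall of Bmp4 in cells with mutated CTCF and auxin was among the results already seen, so it is given below as a description, with no test. All 10 genes were listed in each of the 5 tables and all 10 had a mean of at least 10 normalised counts in each, which was the level required for testing.

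Each of 16 groups had 2 libraries, 32 in all. CTCF AID cells carry CTCF fused to an auxin-inducible degron, a tag through which auxin triggers destruction of the protein, and were given 500 µM indole-3-acetic acid (IAA) for 0, 12 or 24 h. RAD21 AID cells carry the tag on the cohesin subunit RAD21 and were sampled at the same times, with 1 µM 5-Ph-IAA. A further 4 CTCF AID libraries, at 0 and 12 h, are labelled as a serum condition, whereas the growth protocol given for every sample describes serum-free medium with leukemia inhibitory factor and the inhibitors PD0325901 and CHIR99021. In the overexpression experiment, CTCF AID cells carried a control, wild-type CTCF or mutated CTCF, each without and with IAA for 12 h. CTCF AID cells were also given a control hairpin or a hairpin against Chd4, which encodes the remodelling ATPase of the NuRD complex. The mutation in CTCF, the number of clones and the origin of the replicate libraries are not given in the sources used here, so the p-values measure the spread between libraries, which may be technical. Titles and treatment labels conflict in 4 libraries: the mutated CTCF pair whose titles name no IAA carries a treatment label of 12 h IAA, and the wild-type CTCF pair whose titles name IAA carries a label without it. Groups follow the titles. Every comparison that uses mutated CTCF without IAA or wild-type CTCF with IAA, within or between constructs, exists only under the titles. The labels would leave no untreated mutated group and no treated wild-type group.

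CTCF binds DNA in a sequence-specific manner and stops cohesin, the ring complex that extrudes chromatin loops, so that the pair shapes which enhancers and promoters lie within the same loop. Nodal and BMP4 are secreted ligands of the TGF-beta family. Nodal needs the coreceptor encoded by Tdgf1 (Cripto) and signals through SMAD2 and SMAD3, which together with FOXH1 switch on Nodal itself and its own antagonists Lefty1 and Lefty2. BMP4 signals through SMAD1 and SMAD5, which switch on the Id genes, whose products block differentiation-promoting helix-loop-helix factors, and on the inhibitory SMADs, which damp the receptors. In mouse ES cells BMP signalling from serum, or BMP4 itself, supports self-renewal through the Id genes, and the Lefty genes and Tdgf1 are widely used as markers of the pluripotent state.

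Lefty1 and Lefty2 lie on the same chromosome and are close copies, which bears on how far their values are independent. In GENCODE M21 (GRCm38), Lefty2 is at chr1:180893108-180899103 and Lefty1 at chr1:180935022-180938400, both on the plus strand with 35918 bases between them. Their coding sequences are each 1104 bases without the stop codon and 91.8% of the aligned coding bases are identical. The longest identical coding run is 140 bases. Reads that fall wholly within such a run cannot be assigned to either gene by sequence. Of all 50-base words in the annotated transcripts, 17.9% of those of Lefty1 and 12.0% of those of Lefty2 occurred in another gene, and how the authors' counting split them is not given in the sources used here. For Tdgf1 the share was 8.86%, all of it in the pseudogene Tdgf1-ps1. For Bmp4 it was 2.18%, mostly in Gm15217, a gene on the opposite strand whose exons overlap those of Bmp4 and which none of the tables lists under that identifier.

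Bmp4 is at chr14:46383520-46390669 on the minus strand of GRCm38. The 250 bases before its start, chr14:46390670-46390919, are printed from the RefSeq table of GRCm38.p6. Bmp4 was picked because its range was wider than that of Nodal, the other ligand, in cells with altered CTCF. That range includes the mutated CTCF values known when the genes were chosen, so nothing is drawn from the choice of sequence. The sequence reads 5′ to 3′ on the strand of the gene.
Bmp4: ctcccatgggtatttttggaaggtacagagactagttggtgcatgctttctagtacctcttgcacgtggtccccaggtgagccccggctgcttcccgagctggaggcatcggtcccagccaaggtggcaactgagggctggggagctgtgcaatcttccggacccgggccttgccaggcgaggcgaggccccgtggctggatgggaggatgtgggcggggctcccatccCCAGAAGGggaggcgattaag
The capitals mark the match to CCANNAGG, the middle of the CTCF motif, which begins 21 bases before the start. It was searched on both strands, and 17.9% of 32817 promoter windows of this length hold it, so its presence marks Bmp4 out little. The table matched 6 of the 10 genes: Bmp4, Nodal, Tdgf1, Smad6, Id2 and Id3. The windows of Id2 and Id3 hold 161 and 250 bases of annotated exon, so they do not lie before the annotated gene and are not used. None of the other 4 windows held GGCGCC (in 9.59% of windows), CAGACA (in 17.1%), AATCCACA (in 0.719%) or TATAAA (in 12.4%), each searched on both strands.

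Summed over genes, the libraries held from 15364584 to 19642332 normalised counts, and the correlation of replicates across genes (log2 scale) was 0.982 at the lowest and 0.992 at the highest. All 8 ES cell markers were listed in each table. Chd4 itself was 9923 and 9526 in the control hairpin libraries, against 3379 and 3729 in those with the hairpin that targets it. Ctcf was higher with either CTCF construct than with the control, by 1.15 (wild type) and 1.19 (mutated) on the log2 scale without IAA. Degradation acts on protein, so transcripts of Ctcf and Rad21 do not check it. In the overexpression groups as titled, Ctcf rose with IAA by 0.28 in the control, 0.28 in the wild-type and 0.27 in the mutated arm (limma adjusted p = 0.000112, 0.000221 and 0.000292).

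Differences were fitted over all genes of a table, and a gene was called at a limma adjusted p under 0.05. After 12 h of CTCF degradation 1 of the 10 genes was called higher and 1 lower, against 17.8% of all genes tested called in either direction, and after 24 h 2 were higher and 2 lower, against 22.5%. The 12 h and 24 h comparisons share their 0 h libraries. Between 12 and 24 h, limma called none of the 10, with 2 at an unadjusted p under 0.05, against 0.146% of all genes. In the serum condition 3 were higher and none lower, against 17.0%. After RAD21 degradation 1 was higher and 1 lower at 12 h, against 13.0%, 1 was higher and none lower at 24 h, against 13.7%, and 1 was higher and 1 lower between 12 and 24 h, against 15.9%. In the overexpression experiment IAA gave 2 higher and 1 lower with the control, against 25.3%, 4 higher and 1 lower with wild-type CTCF, against 21.4%, and, of the 9 genes other than Bmp4, 2 higher and 2 lower with mutated CTCF, against 16.2%. The Chd4 hairpin gave 4 higher and 3 lower, against 67.4%. With 10 genes, shares of this size beside such backgrounds say nothing particular about these genes as a set.

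**Figure D1:**
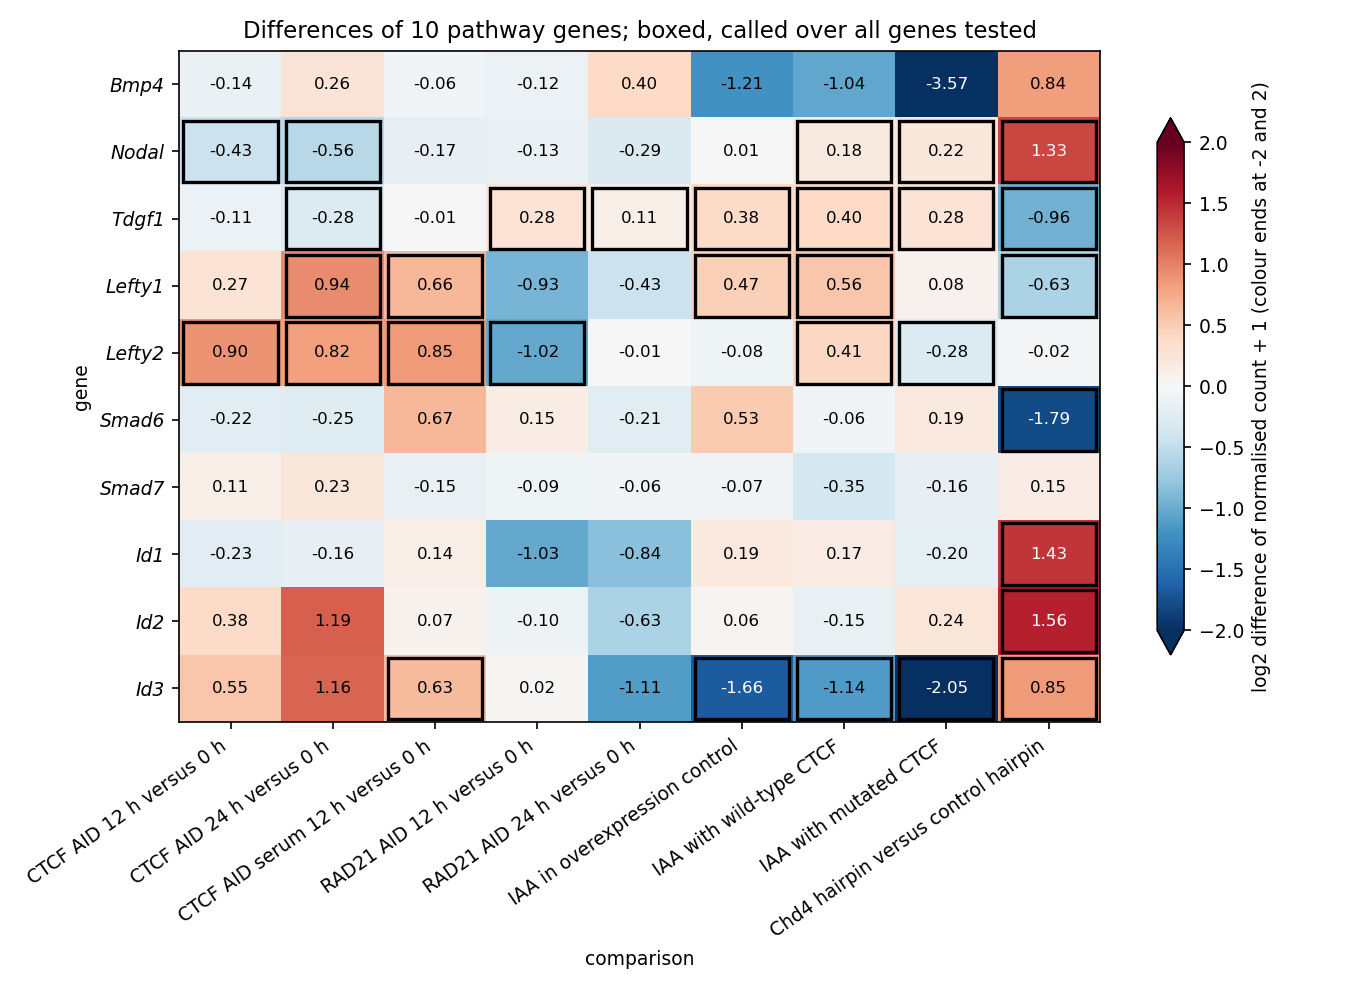
Differences of the 10 genes (vertical axis) in 9 comparisons (horizontal axis), as the log2 difference of the normalised count plus 1, with red higher and blue lower. Boxes mark genes called over all genes tested, and no box is drawn for Bmp4 with mutated CTCF and IAA (-3.57), which was known when the genes were chosen. Lefty2 was 0.90 after 12 h of CTCF degradation and -1.02 after 12 h of RAD21 degradation, and Smad7 had no box in any column.

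Nodal fell in the serum-free CTCF AID time course and rose when Chd4 was knocked down. The gene is at chr10:61417972-61425338. It stood at 953 and 999 normalised counts at 0 h, 729 and 724 after 12 h and 665 and 655 after 24 h of IAA. The libraries of the treated groups lay below both 0 h libraries, and the means were 976 ± 32.1, 726 ± 3.33 and 660 ± 7.04 (SD, n = 2). The log2 difference from 0 h was -0.43 (SE 0.07, adjusted p = 0.00725) at 12 h and -0.56 (SE 0.07, adjusted p = 0.00189) at 24 h. Without the replicate 2 library at 0 h, the 12 h difference was -0.39 and no longer called (adjusted p = 0.0554).

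In the other degradation experiments Nodal was not called. It was 752 and 691 at 0 h and 627 and 654 at 12 h in the serum condition, a log2 difference of -0.17 (adjusted p = 0.15). With RAD21 degraded it was 935 and 833 at 0 h, 831 and 780 at 12 h and 690 and 757 at 24 h, with a difference of -0.29 (SE 0.09, adjusted p = 0.0782) at 24 h. In the overexpression control, Nodal was 1011 and 1018 without IAA and 1031 and 1015 with it, a difference of 0.01 (SE 0.05), and these groups overlapped. With wild-type CTCF it went from 999 and 1054 to 1175 and 1145 with IAA, and with mutated CTCF from 1111 and 1047 to 1229 and 1291. These rises, of 0.18 (adjusted p = 0.0429) and 0.22 (adjusted p = 0.0187), are small, and each lost its call in a fit of the compared groups alone (adjusted p = 0.104 and 0.0651). With wild-type CTCF the call was also lost when any of the 4 libraries was left out (adjusted p from 0.0614 to 0.199), and with mutated CTCF without replicate 2 of either group (adjusted p = 0.13 without IAA and 0.131 with IAA). The effect of IAA did not differ from that in the control beyond the threshold, by 0.16 for the wild-type arm (SE 0.08, adjusted p = 0.448) and 0.21 for the mutated arm (SE 0.08, adjusted p = 0.28).

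Tdgf1, which encodes the coreceptor that Nodal needs, was by far the most abundant of the 10 transcripts and moved in different directions in different cells. It is at chr9:110939603-110946158. Per kilobase of merged exons, its mean at 0 h of CTCF degradation was 2739 normalised counts, against 466 for Nodal, 259 for Lefty2, 234 for Smad7 and 107 for Lefty1. The remaining 5 genes were between 3.05 (Id2) and 28.3 (Smad6) on the same scale. The order of the Lefty2 and Smad7 levels rests on means that differ little, whereas Tdgf1 and Nodal stand clear of the rest.

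With CTCF degraded, Tdgf1 was 7443 and 6921 at 0 h, 6769 and 6534 at 12 h and 6115 and 5736 at 24 h. The 24 h libraries lay below all others, and the fall by 24 h was -0.28 on the log2 scale (SE 0.05, adjusted p = 0.00985). Without the replicate 1 library at 0 h the fall was -0.22 (adjusted p = 0.0639). With RAD21 degraded, Tdgf1 went from 10202 and 9859 to 12259 and 12158 at 12 h, a rise of 0.28 (SE 0.03, adjusted p = 0.00224), and to 10649 and 11049 at 24 h. The 24 h rise of 0.11 (adjusted p = 0.042) was not called when any of the 4 libraries was left out (adjusted p from 0.0636 to 0.178). The drop from 12 to 24 h of -0.17 (adjusted p = 0.00957) was lost without either 12 h library or without 24 h replicate 1 (adjusted p = 0.0606, 0.0517 and 0.0526). In the serum condition Tdgf1 stayed between 15687 and 16042 in all 4 libraries.

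Tdgf1 rose with IAA in all 3 arms of the overexpression experiment. It rose from 6287 and 6573 to 8218 and 8491 with the control, a difference of 0.38 (SE 0.03, adjusted p = 1.76e-05). With wild-type CTCF it rose from 6441 and 6761 to 8749 and 8622, by 0.40 (adjusted p = 2.65e-05), and with mutated CTCF from 6352 and 6386 to 7641 and 7781, by 0.28 (adjusted p = 0.000336). In each arm the libraries with IAA lay above those without. At the same 12 h of IAA, the difference was -0.11 in the CTCF AID time course (adjusted p = 0.192) and -0.01 in serum (adjusted p = 0.774), neither of them called, and the contrast across separately normalised tables was not tested. With IAA, Tdgf1 was lower with mutated than with wild-type CTCF by 0.17 on the log2 scale (log2 difference -0.17, adjusted p = 0.0246), a call lost when any library of those groups was left out (adjusted p from 0.12 to 0.152).

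In the serum-free CTCF AID time course, Lefty2 was called higher by 12 h and Lefty1 by 24 h. In the serum condition both were called higher at 12 h. The overexpression control, described below, differed at 12 h of IAA, with Lefty1 called higher (0.47) and Lefty2 not called (-0.08). Lefty2 fell at 12 h of RAD21 degradation and returned by 24 h. In the CTCF AID cells Lefty2 was 686 and 666 at 0 h, 1301 and 1223 at 12 h and 1147 and 1242 at 24 h. The treated libraries did not overlap with the untreated ones, and the differences were 0.90 (SE 0.07, adjusted p = 0.000414) and 0.82 (SE 0.07, adjusted p = 0.000457). In these cells Lefty1 was called at 24 h only. It went from 193 and 184 at 0 h to 210 and 247 at 12 h, a difference of 0.27 (SE 0.13, adjusted p = 0.214). At 24 h it was 343 and 383, a difference from 0 h of 0.94 (SE 0.13, adjusted p = 0.00339). Its rise from 12 to 24 h of 0.67 (SE 0.13) was not called either (adjusted p = 0.115).

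In the serum condition Lefty2 rose from 2308 and 2309 to 4190 and 4160 at 12 h, a difference of 0.85 (SE 0.03, adjusted p = 2.48e-05). Lefty1 rose from 1406 and 1512 to 2331 and 2287, a difference of 0.66 (SE 0.05, adjusted p = 0.00024). Both kept their calls when any library was left out. The ratio of Lefty2 to Lefty1 per kilobase of exon was 1.07 in serum at 0 h, against 2.42 in serum-free CTCF AID cells and 9.10 in RAD21 AID cells at 0 h. Lefty1 itself was highest in the serum libraries and lowest in the RAD21 AID libraries, and these levels come from separately normalised tables and were not tested against each other.

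With RAD21 degraded, Lefty2 was 1716 and 1829 at 0 h, 846 and 905 at 12 h and 1720 and 1793 at 24 h. The fall at 12 h was -1.02 (SE 0.06, adjusted p = 0.000427), the rise from 12 to 24 h was 1.00 (SE 0.06, adjusted p = 0.000249), and the 24 h level differed from 0 h by -0.01 (SE 0.06, adjusted p = 0.914). Each of these differences kept its side of the threshold when any library was left out. Lefty1 was 147 and 116 at 0 h, 62.4 and 73.6 at 12 h and 121 and 77.3 at 24 h. Its 12 h difference was -0.93 (SE 0.26) and just missed the threshold (adjusted p = 0.0607), and it was called in a fit of those groups alone (adjusted p = 0.0457).

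**Figure D2:**
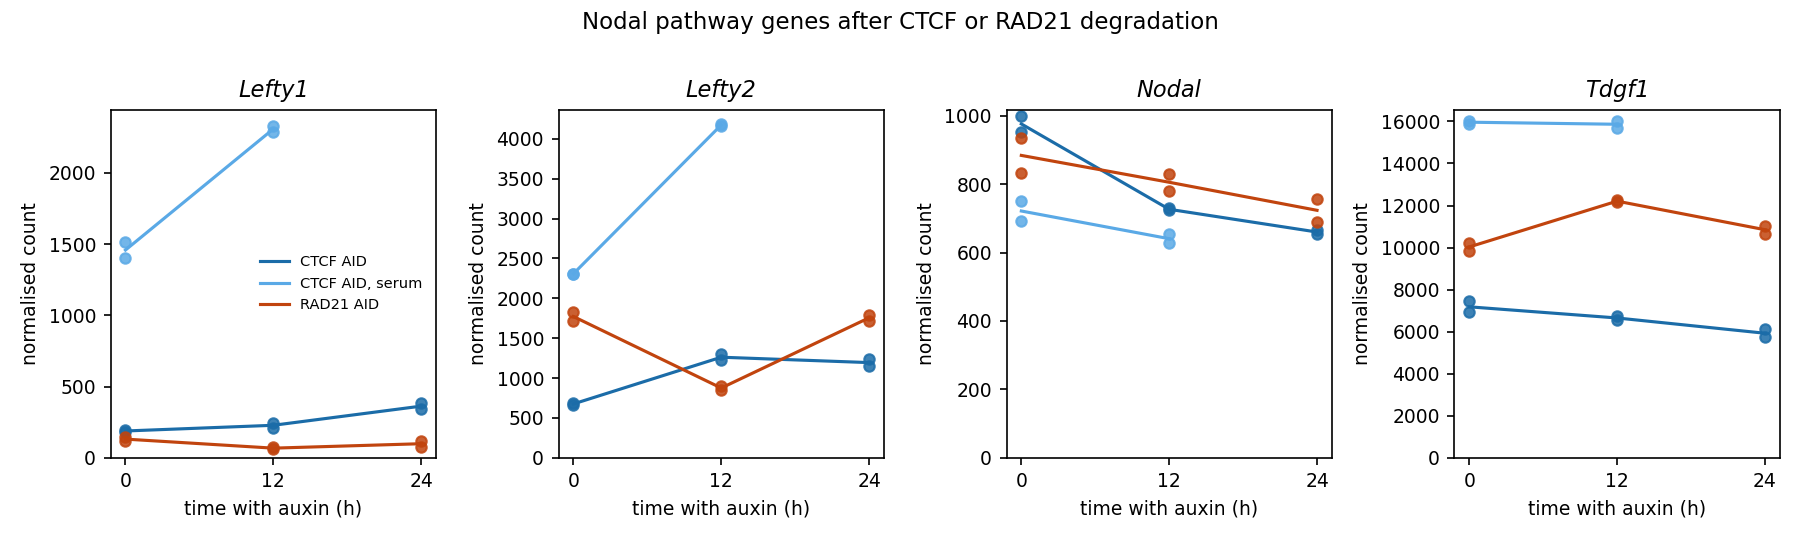
Normalised counts (vertical axis, from 0) of Lefty1, Lefty2, Nodal and Tdgf1 against hours with auxin (horizontal axis) in CTCF AID cells, CTCF AID cells in the serum condition and RAD21 AID cells. Points are libraries and lines join group means of 2 libraries. The RAD21 AID line of Lefty2 dips to 846 and 905 at 12 h and is back at 1720 and 1793 at 24 h, whereas both CTCF AID lines are higher at 12 h than at 0 h.

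In the overexpression experiment the response of Lefty2 to IAA depended on the construct. With the control, Lefty2 was 1881 and 1997 without IAA and 1867 and 1797 with it, a difference of -0.08 (SE 0.05, adjusted p = 0.22). With wild-type CTCF it rose from 1871 and 1945 to 2576 and 2502, by 0.41 (SE 0.05, adjusted p = 0.000161). With mutated CTCF it fell from 1877 and 1901 to 1564 and 1543, a difference of -0.28 (SE 0.05, adjusted p = 0.00191). The interaction test of wild-type CTCF against the control gave 0.49 (SE 0.06, adjusted p = 0.00274) and was the only call among the 10 genes, against 1.41% of all genes. For mutated CTCF the interaction was -0.20 (SE 0.06, adjusted p = 0.211), and limma called none of the 9 genes other than Bmp4 there, with 3 at an unadjusted p under 0.05, against 1.64% of all genes. Without IAA the libraries of all 3 arms lay between 1871 and 1997. The libraries titled as wild-type CTCF with IAA carry a treatment label of no IAA, as stated in the opening.

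Lefty1 rose with IAA in the control, from 574 and 523 to 783 and 735, by 0.47 (SE 0.08, adjusted p = 0.00165). It also rose with wild-type CTCF, from 475 and 480 to 710 and 703, by 0.56 (SE 0.08, adjusted p = 0.000748). With mutated CTCF it was 618 and 541 without IAA and 611 in both libraries with IAA, a difference of 0.08 (SE 0.08, adjusted p = 0.555) with overlapping groups. The difference between these IAA effects was -0.39 for mutated CTCF against the control and was not called (SE 0.11, adjusted p = 0.167). Lefty1 and Lefty2 therefore parted in the control, where Lefty1 was called higher with IAA and Lefty2 had a difference of -0.08.

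Direct comparisons between constructs called between none and 4 of the 10 genes. Where mutated CTCF is compared, the 10 include Bmp4, whose values there were known when it was chosen. Without IAA, limma called none between wild-type CTCF and the control, with 1 at an unadjusted p under 0.05, against 0.897% of all genes, and 1 between mutated CTCF and the control, against 5.55%, and 1 between mutated and wild-type CTCF, against 6.23%. That gene was Id3 in each case. With IAA, Lefty2 alone was higher with wild-type CTCF than with the control, by 0.47 (adjusted p = 0.00012), against 6.26% of all genes. Lefty2 was lower with mutated than with wild-type CTCF, by -0.71 (SE 0.05, adjusted p = 5e-05), and 2 of the 10 genes were called there, against 2.25%. Between mutated CTCF and the control with IAA 4 were called, against 6.50%: Nodal (0.30), Id3 (0.75), Lefty1 (-0.31) and Lefty2 (-0.24). The calls of those 4 were unstable when a library was left out. The differences then ran from 0.27 to 0.34 (Nodal), 0.66 to 0.84 (Id3), -0.36 to -0.27 (Lefty1) and -0.27 to -0.21 (Lefty2). None of the 4 was called with groups taken from the treatment label. Those comparisons above that use mutated CTCF without IAA or wild-type CTCF with IAA exist only under the titles.

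Smad7, which encodes an inhibitor of both the Nodal and the BMP branch, was called in none of the 19 comparisons. Over the 32 libraries it lay between 499 (control hairpin) and 1822 (wild-type CTCF without IAA). In the CTCF time course it was 972 and 1143 at 0 h, 1164 and 1111 at 12 h and 1191 and 1275 at 24 h, a 24 h difference of 0.23 (SE 0.09, adjusted p = 0.118). Its replicates were widest with wild-type CTCF without IAA, at 1822 and 1332. Without the second of these, the difference with IAA in that arm was -0.57 and called (adjusted p = 0.0198), against -0.35 (adjusted p = 0.11) with all libraries.

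Smad6, the inhibitory SMAD that acts mainly on the BMP branch, was lower and noisier, between 17.5 and 146 normalised counts. Its gene is at chr9:63953076-64022059. In CTCF AID cells it was 97.3 and 84.3 at 0 h and 56.3 and 102 at 24 h, so that these groups overlapped. In the serum condition it went from 40.4 and 37.1 to 68.6 and 56.3, a difference of 0.67 (SE 0.22, adjusted p = 0.0792). With the overexpression control it went from 80.4 and 97.3 to 146 and 113 with IAA, a difference of 0.53 (SE 0.20, adjusted p = 0.0827). Only the Chd4 hairpin gave a called change of Smad6, described below.

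**Figure D3:**
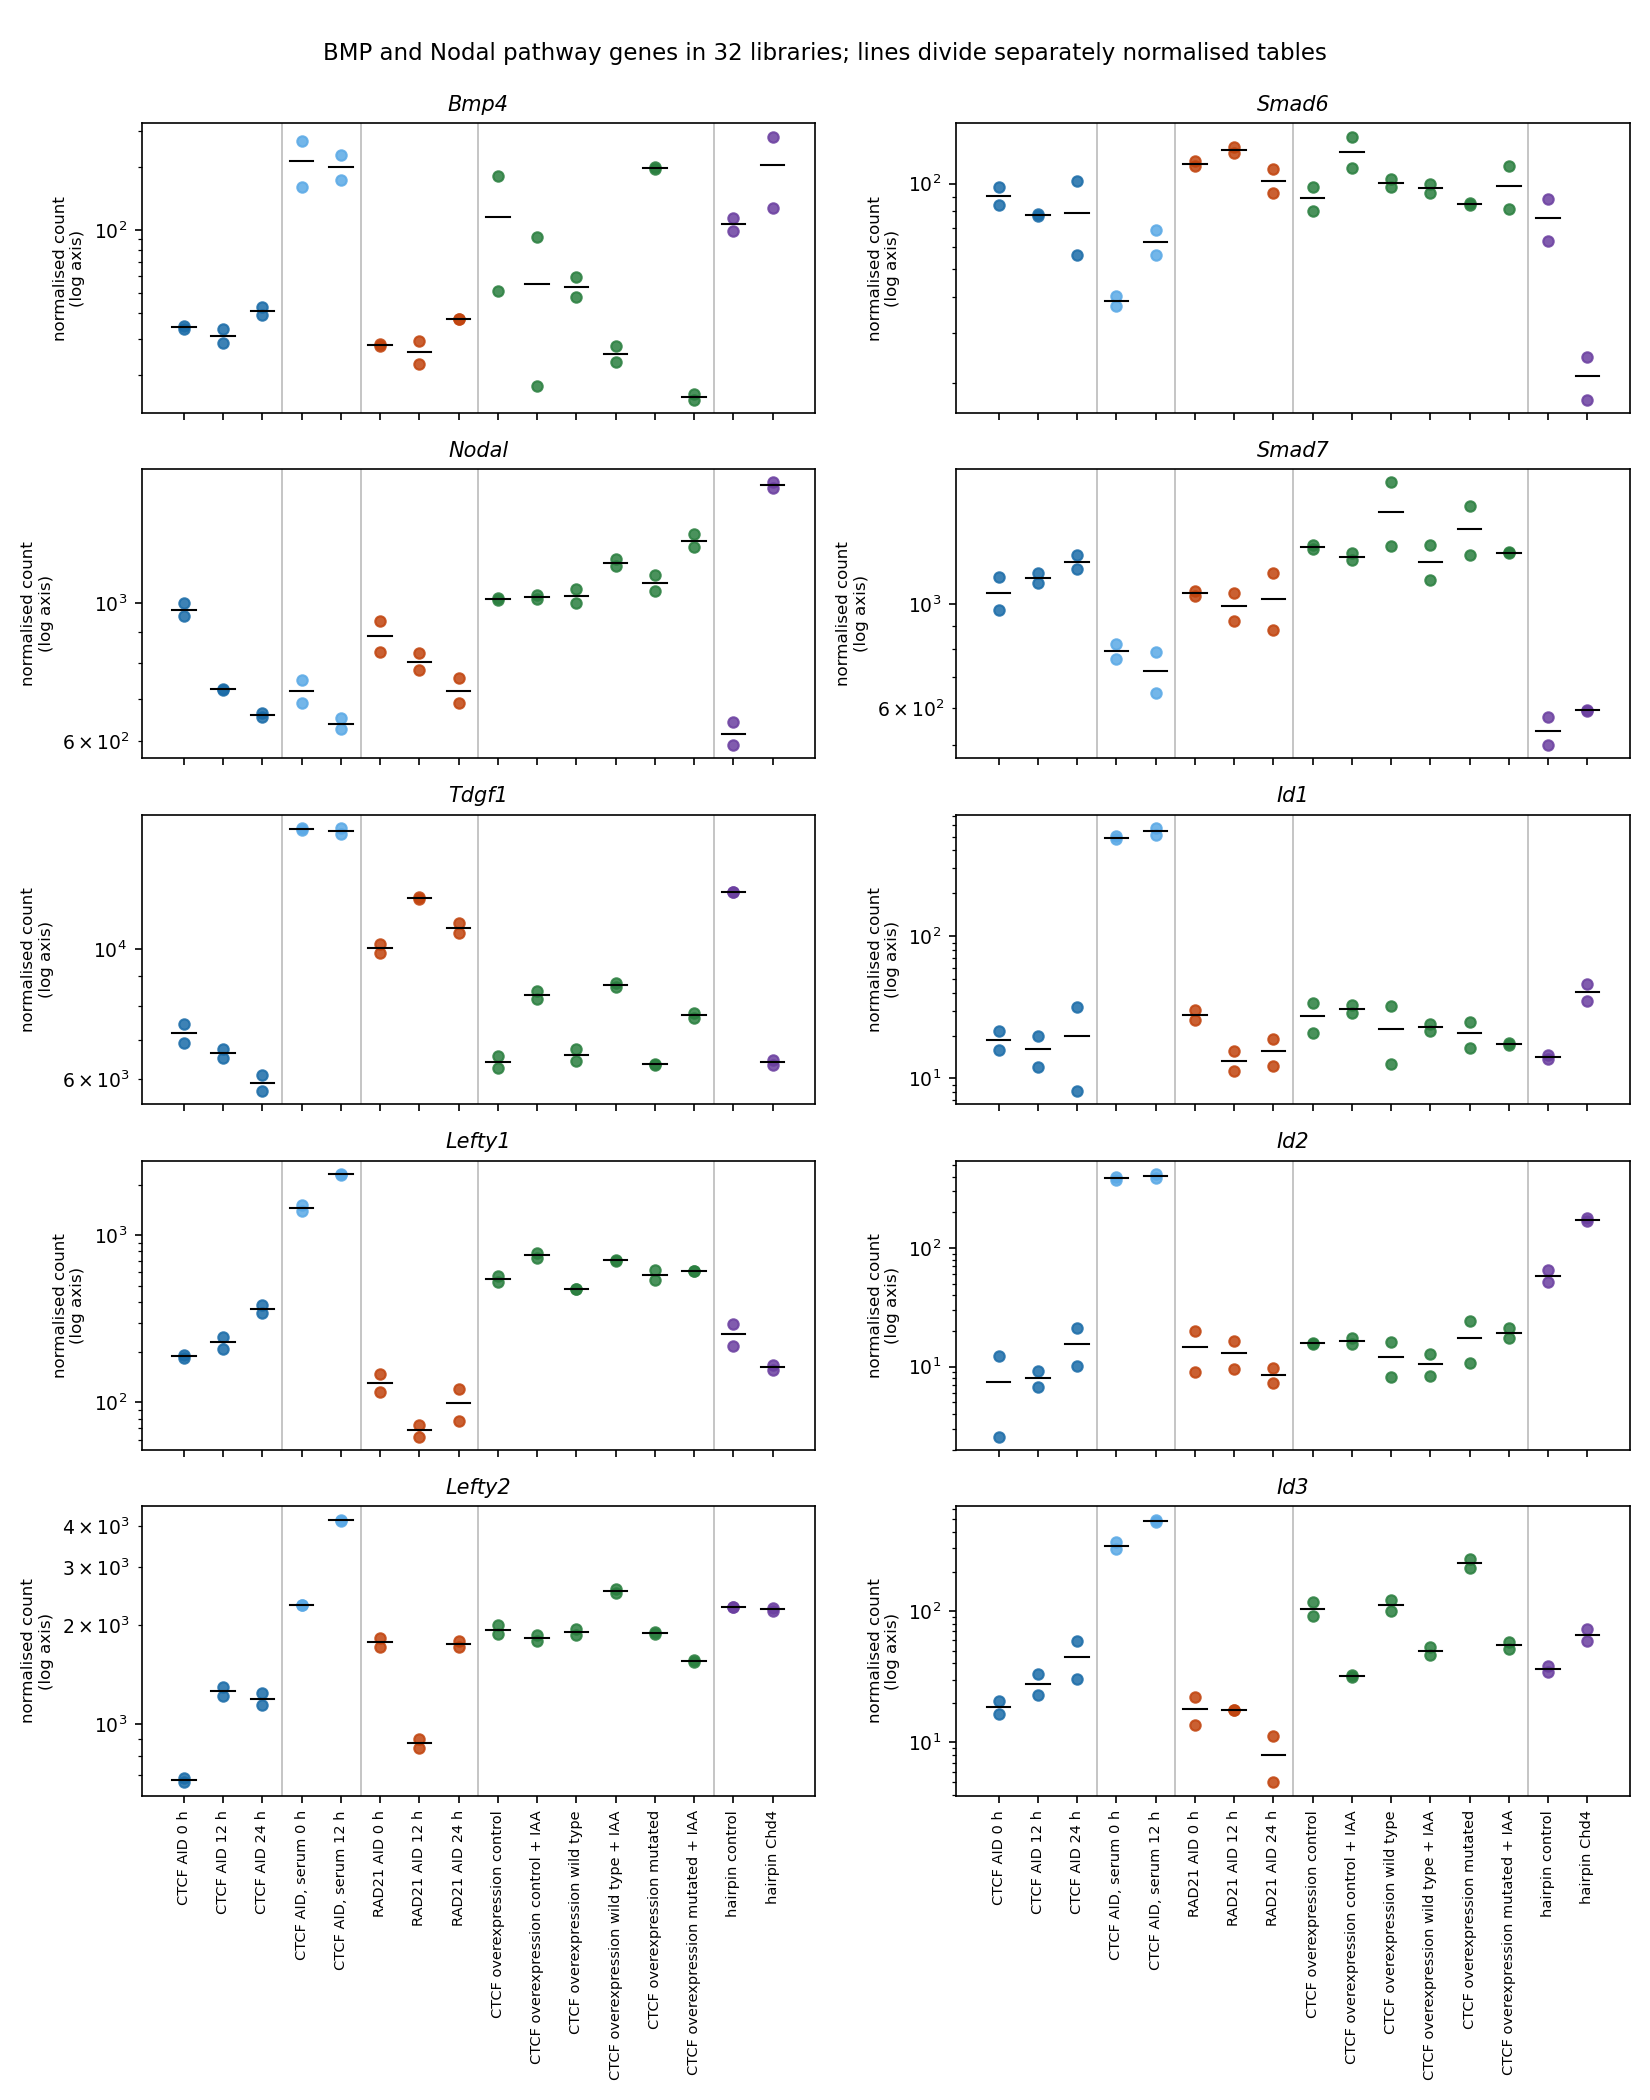
Normalised counts (vertical axes, logarithmic) of the 10 genes in all 32 libraries, by group (horizontal axis). Points are libraries, black bars are group means and grey lines divide tables that were normalised separately. Id1 is highest in the 4 serum libraries, where it lies between 485 and 575, and Id2 lies between 378 and 423 in the same libraries.

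Bmp4, the BMP ligand of the set, was low in serum-free AID cells and was not called there. In CTCF AID cells it was 33.3 and 34.7 at 0 h, 33.3 and 28.5 at 12 h and 39.1 and 42.5 at 24 h, and in RAD21 AID cells it lay between 22.6 and 37.3 in the 6 libraries. The log2 differences from 0 h, of -0.14, 0.26, -0.12 and 0.40, were not called (adjusted p from 0.399 to 0.822). In the serum libraries it was 269 and 161 at 0 h and 173 and 230 at 12 h, with overlapping groups.

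In the overexpression experiment Bmp4 was split between the replicates of the control and close between those of mutated CTCF. With the control it was 50.7 and 181 without IAA, and 92.5 and 17.7 with IAA. With wild-type CTCF it was 47.8 and 59.1 without and 27.7 and 23.1 with IAA, a difference of -1.04 (SE 0.67, adjusted p = 0.302). With mutated CTCF it was 200 and 197 without and 16.2 and 15.3 with IAA, a log2 difference of -3.57, or 11.9-fold lower. The control difference was -1.21 (SE 0.67, adjusted p = 0.217). It was -2.38 and called without the replicate 1 library with IAA (adjusted p = 0.019), so that 1 library decides whether Bmp4 is called in the control. This fall in the mutated CTCF arm was known when the genes were chosen, and it exists only with groups taken from the titles. The motif match printed above says nothing about whether CTCF was bound there in these cells.

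Id3, a BMP target, fell with IAA in all 3 arms of the overexpression experiment. It is at chr4:136143497-136145755. With the control it fell from 117 and 91.0 to 31.5 and 32.7, a difference of -1.66 (SE 0.19, adjusted p = 0.000138). With wild-type CTCF it fell from 121 and 101 to 46.4 and 53.4 (-1.14, adjusted p = 0.00219), and with mutated CTCF from 248 and 213 to 51.5 and 58.3 (-2.05, adjusted p = 8.39e-05). All these groups were separate and the calls held when any library was left out. The interaction tests did not call a difference between arms (adjusted p = 0.518 and 0.611).

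Without IAA, mutated CTCF came with more Id3 than the control, by 1.15 (SE 0.19, adjusted p = 0.00723), or than wild-type CTCF, by 1.05 (SE 0.19, adjusted p = 0.0108). Both comparisons use the mutated CTCF libraries whose treatment label is 12 h IAA, so they exist only with groups taken from the titles. The first call was lost without control replicate 2 or mutated CTCF replicate 1 (adjusted p = 0.0599 and 0.0645), the second without wild-type CTCF replicate 2 or mutated CTCF replicate 1 (adjusted p = 0.0764 and 0.0796). Bmp4 stood at 200 and 197 in the same mutated CTCF libraries and at 47.8 and 59.1 in the wild-type ones, which is given with no test because these mutated CTCF values were known when the genes were chosen.

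**Figure D4:**
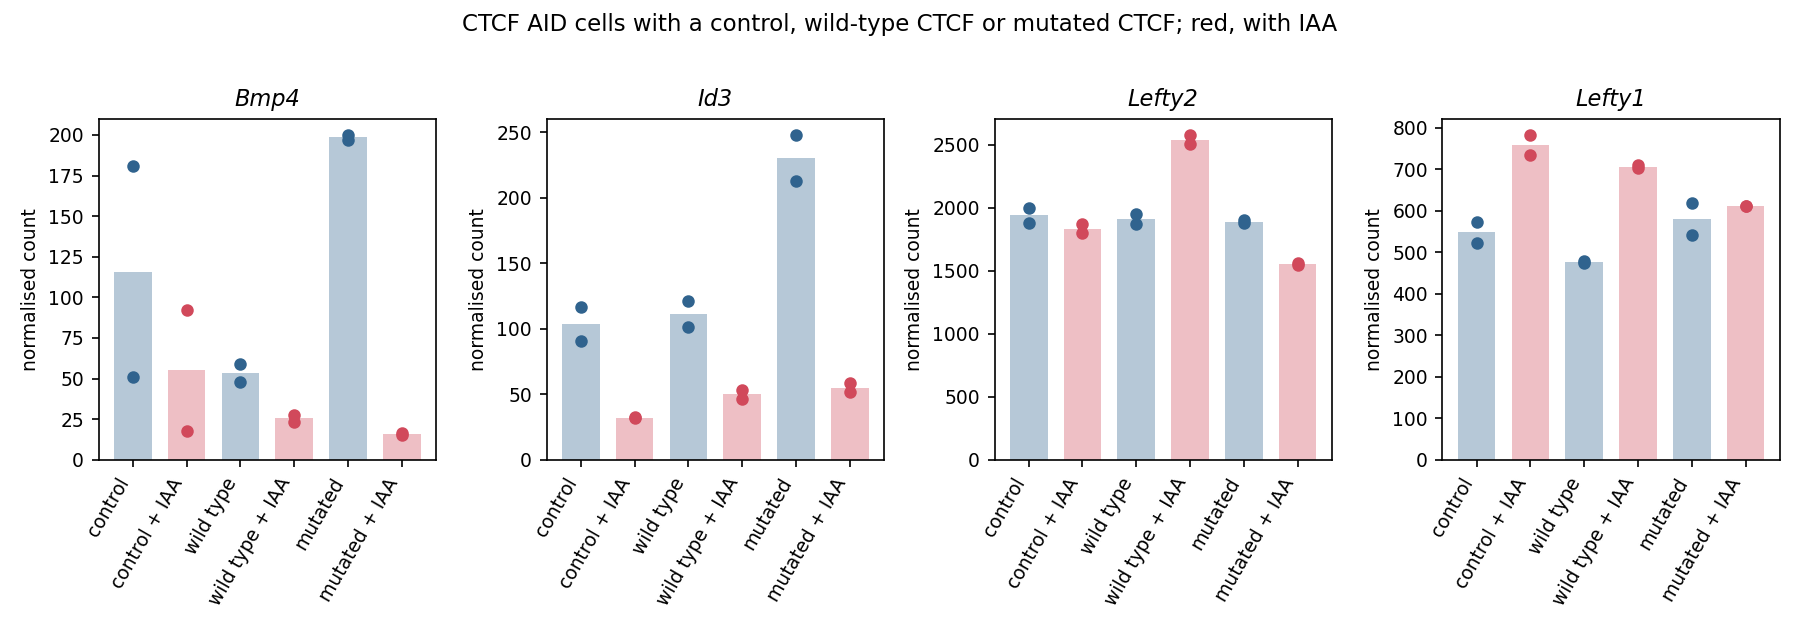
Normalised counts (vertical axes, from 0) of Bmp4, Id3, Lefty2 and Lefty1 in CTCF AID cells with a control, wild-type CTCF or mutated CTCF (horizontal axis), without IAA in blue and with IAA in red. Bars are means of 2 libraries and points are the libraries. Id3 is lower with IAA in each arm, Lefty2 with wild-type CTCF and IAA (2576 and 2502) lies above all other libraries plotted for it, and Bmp4 of the control is split between its replicates (50.7 and 181).

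In the degradation experiments Id3 was called once, and it was higher there. In serum it rose from 333 and 297 to 474 and 498 at 12 h of CTCF degradation, by 0.63 (SE 0.09, adjusted p = 0.00471). That call was lost without replicate 2 at 12 h (adjusted p = 0.0553). In serum-free CTCF AID cells it was 20.7 and 16.4 at 0 h, 33.0 and 23.0 at 12 h and 58.7 and 30.5 at 24 h. The 24 h difference of 1.16 had an SE of 0.40 and was not called (adjusted p = 0.0822), and without replicate 2 at 24 h it was 1.62 and called (adjusted p = 0.0461). With RAD21 degraded Id3 was 22.3 and 13.5 at 0 h and 11.1 and 4.96 at 24 h, a difference of -1.11 (SE 0.51, adjusted p = 0.196).

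Id1 and Id2, the other BMP targets, were low in serum-free cells and did not pass the test in any degradation or overexpression comparison. Id1 is at chr2:152736251-152737410 and Id2 at chr12:25093799-25097140. At 0 h, Id1 was 15.9 and 21.4 and Id2 12.3 and 2.57 in CTCF AID cells, against 502 and 485 and 397 and 378 in the serum condition. The serum libraries were thus the higher ones, but the tables were normalised separately and the levels were not tested against each other. At 12 h in serum, Id1 was 515 and 575 and Id2 423 and 390, differences of 0.14 (SE 0.08, adjusted p = 0.291) and 0.07 (SE 0.09, adjusted p = 0.653). For the low values the errors are wide: the 24 h difference of Id2 was 1.19 with an SE of 0.72.

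The Chd4 hairpin changed most of the 10 genes, in a comparison in which 67.4% of all genes tested were called. Nodal rose from 591 and 643 to 1563 and 1531, a difference of 1.33 (SE 0.07, adjusted p = 1.18e-05). Tdgf1 fell from 12469 and 12498 to 6358 and 6478, a difference of -0.96 (SE 0.04, adjusted p = 4.95e-06). Ligand and coreceptor thus moved apart. Lefty2 was 2273 and 2268 with the control hairpin and 2255 and 2214 with the Chd4 hairpin, a difference of -0.02 (SE 0.05, adjusted p = 0.698). Lefty1 went from 293 and 217 to 168 and 157 (-0.63, SE 0.17, adjusted p = 0.0144), a call lost without either Chd4 hairpin library (adjusted p = 0.102 and 0.135).

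On the BMP side, Smad6 fell from 62.7 and 88.4 to 17.5 and 24.7, a difference of -1.79 (SE 0.30, adjusted p = 0.00182). Smad7 was 499 and 574 with the control hairpin and 591 and 594 with the Chd4 hairpin (0.15, adjusted p = 0.203). Id2 rose from 51.3 and 65.5 to 168 and 179, by 1.56 (SE 0.19, adjusted p = 0.000396). Id1 rose from 13.8 and 14.5 to 45.8 and 34.8, by 1.43 (SE 0.31, adjusted p = 0.00542), and Id3 from 38.0 and 34.1 to 73.2 and 59.3, by 0.85 (SE 0.24, adjusted p = 0.0169). Under quantile normalisation the Id1 difference was 0.69 (adjusted p = 0.0831) and that of Id3 0.39 (adjusted p = 0.192). Id1 was also not called without Chd4 hairpin replicate 1 (adjusted p = 0.0558), and Id3 without either Chd4 hairpin library (adjusted p = 0.13 and 0.0603). Bmp4 was 98.6 and 114 with the control hairpin and 281 and 128 with the Chd4 hairpin (0.84, SE 0.34, adjusted p = 0.0659), and without the second of these it was 1.40 and called (adjusted p = 0.0142).

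**Figure D5:**
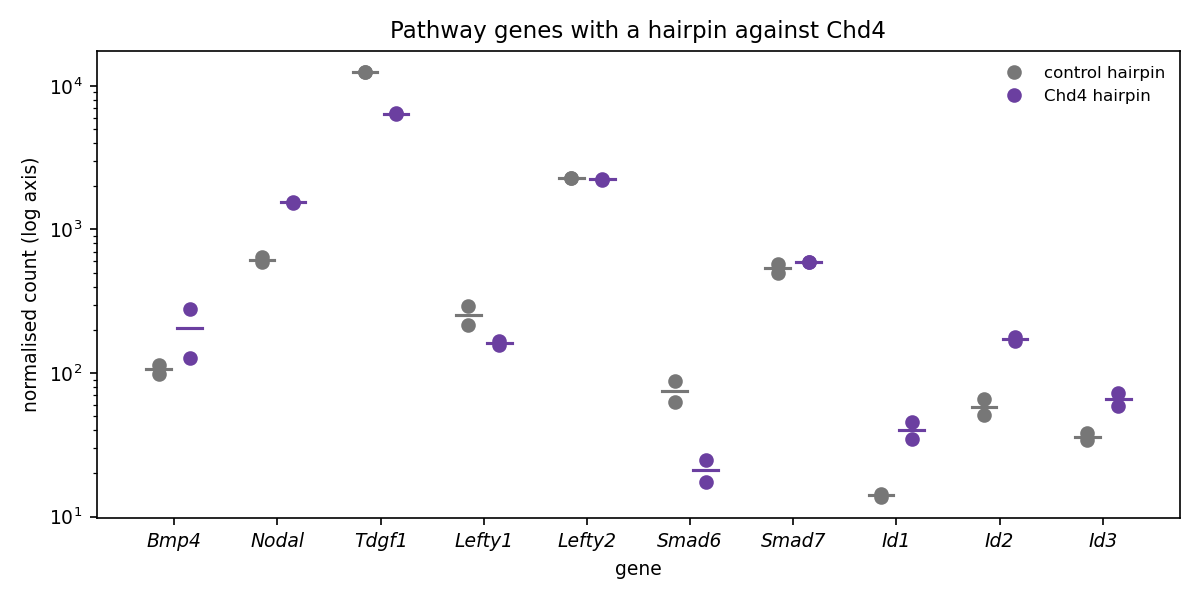
Normalised counts (vertical axis, logarithmic) of the 10 genes (horizontal axis) with the control hairpin (grey) and the Chd4 hairpin (purple). Points are libraries and bars are group means. Nodal and Id2 lie higher with the Chd4 hairpin, Tdgf1 and Smad6 lower, and Lefty2 differs by -0.02 on the log2 scale.

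Markers of other cell types moved beside these changes. With the Chd4 hairpin, the summed level of the 7 primitive endoderm markers listed (of 8) went from between 190 and 289 to between 1663 and 1730, while that of the 8 ES cell markers went from between 123242 and 124942 to between 77462 and 78745. The primitive endoderm markers did not move as a group: Dab2 was 616 ± 4.79 with the Chd4 hairpin against 1.78 ± 0.0556, whereas Gata4 was 8.63 ± 0.421 against 41.5 ± 1.98 and Sox17 3.68 ± 0.691 against 16.9 ± 1.26 (SD, n = 2). In bulk RNA fewer cells of a type and less RNA per cell cannot be told apart. The sums of the other lists were also higher with the Chd4 hairpin: primitive streak and mesoderm (from between 78.4 and 95.3 to between 134 and 165), trophoblast (from between 1938 and 1991 to between 2338 and 2496), fibroblast or feeder (from between 240 and 316 to between 570 and 659) and neural (from between 3185 and 3241 to between 4107 and 4174). The part of such cells in the values of the pathway genes was not tested.

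With CTCF degraded, the sum of the 3 listed markers of primitive streak and mesoderm went from between 86.9 and 92.7 at 0 h to between 243 and 250 at 24 h. In the serum condition it went from between 50.1 and 72.8 to between 147 and 153. Other sums moved in the serum-free time course too. The neural sum was between 2000 and 2068 at 0 h, 2527 and 2657 at 12 h, and 2027 and 2323 at 24 h. The trophoblast sum was between 1582 and 1628 at 0 h, 1294 and 1350 at 12 h, and 1354 and 1360 at 24 h. In the serum condition the ES cell sum also went from between 67832 and 68030 to between 57280 and 58213, with 6 of the 8 markers called lower, and the primitive endoderm sum from between 805 and 874 to between 990 and 1020, with Gata4 called higher. In serum-free cells the rise of the primitive streak and mesoderm sum lay in T (brachyury), the transcription factor of the primitive streak. T went from 7.87 ± 1.5 to 138 ± 11.1 at 24 h (adjusted p = 0.000258), while Mixl1 and Kdr were not called. In the overexpression control that sum was between 160 and 181 without IAA and between 157 and 175 with it, whereas the neural markers went from between 2263 and 2340 to between 3649 and 3761. The neural sum also went from between 2163 and 2200 to between 3337 and 3501 with IAA and wild-type CTCF, and from between 2741 and 2830 to between 4069 and 4228 with IAA and mutated CTCF. The primitive endoderm sum went from between 85.1 and 96.4 to between 159 and 176 in the control and from between 82.1 and 99.3 to between 201 and 322 in the mutated arm, and was between 96 and 183 without and between 128 and 157 with IAA in the wild-type arm. With RAD21 degraded, the sum of the 6 listed primitive endoderm markers was between 190 and 199 at 0 h, between 328 and 420 at 12 h, when Lefty2 was low, and between 271 and 291 at 24 h. Their part in the values of the pathway genes was not tested.

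A wider list of 52 other genes of both pathways (ligands, receptors, signal-carrying SMADs, inhibitors, regulators and targets) gives the setting of these changes. After CTCF degradation 4 of 35 tested were higher and 3 lower at 12 h, and 3 higher and 4 lower at 24 h, against 17.8% and 22.5% of all genes called, with medians of -0.08 and 0.00 against 0.00 for all genes. In this and the comparisons that follow, the counts are read beside the share of all genes called, and nothing particular to the list is drawn from them. Of these, Id4, a further Id gene, rose from 156 ± 3.86 to 336 ± 6.49 at 12 h and 405 ± 2.34 at 24 h. The BMP antagonist Chrd rose by 0.96 at 12 h and the Nodal-branch factor Foxh1 by 0.96 at 24 h. The largest falls were those of Inhbb, an activin subunit, from 266 ± 4.54 to 40.0 ± 1.19 and 28.6 ± 0.679, and of Dusp9, a phosphatase of ERK signalling, from 1754 ± 63.2 to 494 ± 6.07 and 485 ± 11.2.

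In the serum condition 6 of 40 tested were higher and 3 lower, against 17.0% of all genes, among them Chrd (0.83), which rose, and Twsg1 (-0.52) and Bmpr2 (-0.36), which fell. After RAD21 degradation 5 of 36 were higher and none lower at 12 h, against 13.0% of all genes, with Smurf1 (0.55) and Smad5 (0.38) rising most, and 1 was higher and 2 lower at 24 h, against 13.7%, Acvr1b (0.29), Inhbb (-0.86) and Dusp9 (-0.78). Between 12 and 24 h of RAD21 degradation 2 were higher and 5 lower, against 15.9%, Inhbb (-0.97) and Dusp9 (-0.71) falling most, while Id4 (0.64) and Acvr1b (0.34) rose.

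IAA in the overexpression control called 10 of 35 higher and 7 lower, against 25.3% of all genes, with Gsc (1.43), a target of Nodal signalling, and Chrd (0.89) rising most. The largest falls were those of Fst (-2.0), an activin and BMP antagonist, and Twsg1 (-0.80). With wild-type CTCF 7 were higher and 5 lower, against 21.4%, and with mutated CTCF 5 were higher and 5 lower, against 16.2%. Fst fell most in both arms (-1.77 and -2.22). The largest rises were those of Foxh1 (0.53) and Tgfbr1 (0.40) with wild-type CTCF and of Gsc (0.88) and Dusp9 (0.50) with mutated CTCF, and Bmp7 (-0.46) and Id4 (-0.52) followed Fst among the falls. The Chd4 hairpin called 13 of 38 higher and 11 lower, against 67.4% of all genes, among them Bmp8b (2.65), which rose, and Id4 (-2.43) and Skil (-1.66), which fell. Id4 thus fell with the Chd4 hairpin while Id1, Id2 and Id3 were called higher.

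Across the 16 group means, each centred on the mean of its table, Tdgf1 and Smad6 had the highest correlation of any pair of the 10 genes (Pearson r = 0.83), followed by Bmp4 with Id3 and Lefty1 with Lefty2 (r = 0.68 each). The lowest were Nodal with Smad6 (r = -0.73) and Tdgf1 with Id2 (r = -0.69). With the Chd4 hairpin, where 67.4% of all genes were called, the differences were -0.96 (Tdgf1), -1.79 (Smad6), 1.33 (Nodal) and 1.56 (Id2). The part of that comparison in these correlations was not tested. These values describe 16 means from 5 tables that share libraries within a table, and they carry no p. The correlations of Bmp4, here and below, include its mutated CTCF values, which were known when it was chosen. Among 12389 genes tested in all tables, the pattern of Lefty1 was close to those of Slc35b4 (r = 0.89) and Fcho2 (r = 0.86). That of Id1 was most like Arhgap4 (r = 0.93), Zfp697 and Platr25 (r = 0.90 each), and that of Bmp4 most like Rps16-ps2 (r = 0.85), Slc4a4 and Rps10-ps2 (r = 0.84 each).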

How the data were processed

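RNA-seq values of 32 libraries were taken from 5 tables in which the authors deposited normalised counts, a signal that is never negative. The submitters' processing notes name Trim Galore, Bowtie2, STAR, RSEM, DESeq2 and mm10, with no role or version. Values were not whole multiples of a step, so no test on counts was run, and depth in reads is unknown. Groups follow the sample titles, and 1 broken line of the CTCF AID table was left out. limma 3.58.1 (R 4.3.3) was run on log2(value + 1), with a mean trend and all groups of a table together, for genes whose table mean was 10 or more. Benjamini-Hochberg adjustment ran over all genes tested, with calls at 0.05. The fit was also run on simulated data that assumed 1 setting of replicate spread for all genes. Replicates of Bmp4, Id1 and Id2 spread more widely in some groups, so that run does not cover them. A log2 difference on that scale understates changes of low genes. Tables were normalised separately, so tests stay within a table. The smallest p of an exact permutation test at 2 against 2 is 0.333. Of the identifiers, 96.9% were found in GENCODE M21. The 10 genes, the pathway list and the marker lists were chosen with earlier results of these data known. From the pathway list, at most 2 rises and 2 falls per comparison were named by size, from those called whose higher group averaged 50 or more and whose libraries did not overlap. Alternatives were other scalings, a pseudocount of 5, no filter, a replicate block, fits of the compared groups alone, leaving out each library, and groups from the treatment label. Some items that these rules would name are not reported here.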

Additional observations from a re-analysis of the deposited data

Results flagged for a closer look

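In the overexpression experiment the IAA effect on Lefty2 was 0.41 with wild-type CTCF and -0.08, not called, with the control. These effects differed by 0.49 on the log2 scale, by a test of the difference itself (limma adjusted p = 0.00274). The libraries titled as wild-type CTCF with IAA carry a treatment label of no IAA, so this result exists only under the titles.

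Other results stand out because every library of a contrast lay on one side of its controls and every library of another contrast on the opposite side. Those differences between contrasts were not tested, many of the values were not called by limma, and groups of 2 libraries fail to overlap often by chance. At 12 h, CTCF degradation gave 0.90 for Lefty2 where RAD21 degradation gave -1.02, 0.27 for Lefty1 where RAD21 degradation gave -0.93, -0.11 for Tdgf1 where RAD21 degradation gave 0.28, and -0.22 for Smad6 where RAD21 degradation gave 0.15. Of these, limma called both Lefty2 values and the RAD21 value of Tdgf1. At 24 h, CTCF degradation gave -0.28 for Tdgf1 and 1.16 for Id3, where RAD21 degradation gave 0.11 and -1.11. Both Tdgf1 values were called and neither Id3 value was.

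Values of opposite sign were also seen between IAA in the overexpression control and IAA in CTCF AID cells. Against 12 h in serum-free cells these were Tdgf1 (-0.11 and 0.38 in the control), Lefty2 (0.90 and -0.08), Smad6 (-0.22 and 0.53) and Id3 (0.55 and -1.66), with calls for Tdgf1 and Id3 in the control and Lefty2 in the serum-free cells. Against 12 h in serum they were Lefty2 (0.85 and -0.08) and Id3 (0.63 and -1.66), all called except Lefty2 in the control. Smad6 was -0.22 in serum-free and 0.67 in serum cells, neither of them called.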

How the results depend on the processing

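Of 1975 values of single genes under alternatives, 1899 kept their side of the threshold, 62 lost a call, 14 gained one and none changed sign while called. Those that kept their side include 87 that were uncalled in both fits and changed sign. Most of the 1975 values were of genes not called in the main fit of that comparison, which had no call to lose. The 1899 is thus no measure of how stable the calls were. The count of genes called after 24 h of RAD21 degradation went from 1 to 0 with a replicate block and in a fit of the compared groups alone. The totals above, and the counts below for comparisons with mutated CTCF, include Bmp4 in the mutated CTCF libraries. Its values there were known when it was chosen, and nothing is drawn from these totals and counts for that gene. With a library left out, the upper count for mutated CTCF versus control with IAA was reached only by including Bmp4. In fits of the compared groups alone, the count went from 4 to 1 for mutated CTCF versus control with IAA. That last count was 0 with groups from the treatment label. Leaving out 1 library gave 1 to 2 (of 2) for CTCF 12 h, 0 to 0 (of 1) for RAD21 24 h, 1 to 2 (of 2) for RAD21 24 h versus 12 h, 0 to 1 (of 1) for mutated CTCF versus either other construct without IAA, 0 to 2 (of 4) for mutated CTCF versus control with IAA, 1 to 1 (of 2) for mutated versus wild-type CTCF with IAA and 4 to 8 (of 7) for the Chd4 hairpin. Over all genes, fits of the compared groups alone called 2 in place of 125 (wild-type CTCF versus control without IAA), 187 in place of 774 (mutated CTCF versus control) and 221 in place of 868 (mutated versus wild-type), and, with IAA, 541 in place of 872, 571 in place of 906 and 117 in place of 314. The interaction for wild-type CTCF went from 197 to 123, and CTCF 24 h versus 12 h from 20 to 0. Scaling to equal totals set the median of all genes at 0.103 in the Chd4 comparison, against 0.006. Replicate numbers did not pair the libraries (r of same-numbered deviations from -0.063 to 0.102). With 2 libraries per group, small differences of Id1 and Id2 were not detectable at their low values in the serum-free CTCF AID, RAD21 AID and overexpression libraries.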
